A study of Mus musculus with 12 samples.

Results

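The comparison described here set murine bone marrow-derived dendritic cells at 24 h of exposure to nanoparticles against the same kind of cells at 12 h. Its members were the 3 samples labelled 24 h and the 3 labelled 12 h, 6 of the 12 samples of a time course that also held 3 samples at 0 h and 3 at 6 h. Every measured gene was compared, 18392 in all, of which 11565 carried a gene symbol. All groups came from marrow of female mice aged 6 to 8 weeks, cultured with GM-CSF at 20 ng/ml, a growth factor for myeloid cells, and harvested on day 7 as immature dendritic cells. The sources used here name no mouse strain. The cells at 6, 12 and 24 h had been kept with nanoparticles of poly(γ-glutamic acid) (γ-PGA), a biodegradable polymer, at 300 µg/ml, and 0 h was the start of the exposure. The study counts its triplicates as independent experiments, and no culture kept without particles was among the samples, so exposure and time in culture cannot be told apart. The samples were bulk RNA, in which fewer cells of a type and less RNA per cell cannot be told apart.

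Immature dendritic cells sample their surroundings by uptake. When a danger signal reaches Toll-like receptors or related sensors, they mature: NF-kB and interferon regulatory factors switch on cytokines, chemokines, costimulatory proteins and, through secreted interferon, a second wave of interferon-stimulated genes. Much of this first wave is short-lived, because its products include their own inhibitors and because many of its mRNAs decay fast. Comparing late times shows which parts of such a response had passed, which were still present and which genes came up only late.

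Cy3-labelled cRNA was hybridised to 1-colour Agilent arrays, and the deposited values came from 2 sources. The value table gave, for each probe, its linear ratio to the median of the 3 samples at 0 h, so that 1 is the level at 0 h, and the smallest ratio it held was 0.01. The scanner files gave the intensity of each spot, and 50.9% to 59.6% of an array's non-control spots stood well above background. The sources did not order the samples the same way. Across the 18069 genes with a value on every array, the scanner arrays that carry the 24 h label correlated on average at 0.991 with the 0 h arrays. They correlated at 0.923 with the 6 h arrays and at 0.910 with the 12 h arrays. In the table the columns at 24 h correlated at 0.896 with those at 12 h and at 0.742 with those at 6 h, across 18392 genes. The scanner correlations are of log2 intensities and the table's of log2 ratios to 0 h, so their order can be compared but not their size. The changes from 12 h to 24 h in the 2 sources correlated at a Pearson r of 0.38 and a Spearman rho of 0.37 across genes, which are not independent replicates. Which source carries the samples labelled 24 h cannot be settled from the files, and this bears on every value at 24 h given here. The table is described first, and a scanner value named as such stands beside it. In the scanner files the 3 arrays at 24 h shared a slide with 12 h replicate 3, and the other 2 arrays at 12 h lay on another slide.

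From 12 h to 24 h more genes fell than rose in the table. A gene was called when its adjusted p was below 0.05 and it differed by 2-fold or more. By this rule 583 genes were lower at 24 h (3.17% of all tested) and 257 were higher (1.4%). These 840 called genes were 4.57% of all. In 818 of them the 3 values at 24 h and the 3 at 12 h did not overlap. The call itself favours such separation, and its share over all genes was not counted. In the same fit 9353 of the 18392 genes had an unadjusted p below 0.05, whatever the size of their change. The median change of all genes was -0.13 on the log2 scale, and the scaling between columns is not stated. With every column centred on its median, 444 genes were lower (2.41%) and 364 higher (1.98%), 4.39% in all, so that genes higher at 24 h made up 45.0% of the called genes instead of 30.6%. All 444 lower genes were among the 583, and all 257 higher genes were among the 364. Centring raised the log2 change of every gene by the same amount, so this nesting was largely built in. Quantile normalization of all 12 columns left 46 higher and 64 lower. It kept the call of 31 of the 102 genes named in this report and called in the table, and its losses are not marked gene by gene below.

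The change from 0 h to 6 h, which shares no sample with the change from 12 h to 24 h, divided these genes. Both changes were called from 1 fit with 1 estimate of spread per gene, so the calls are not independent. By 6 h, 2439 genes had risen (13.3% of all) and 2169 had fallen (11.8%). Of the 2439 early risers, 292 were lower at 24 h than at 12 h (12.0%) and 24 were higher (0.984%). Of the 2169 genes that fell early, 138 were higher at 24 h (6.36%) and 78 were lower still (3.60%). Of the 13784 genes not called at 6 h, 213 then fell (1.55%) and 95 then rose (0.689%). Early risers made up 50.1% of the falls, and genes that had fallen early made up 53.7% of the rises.

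**Figure D1:**
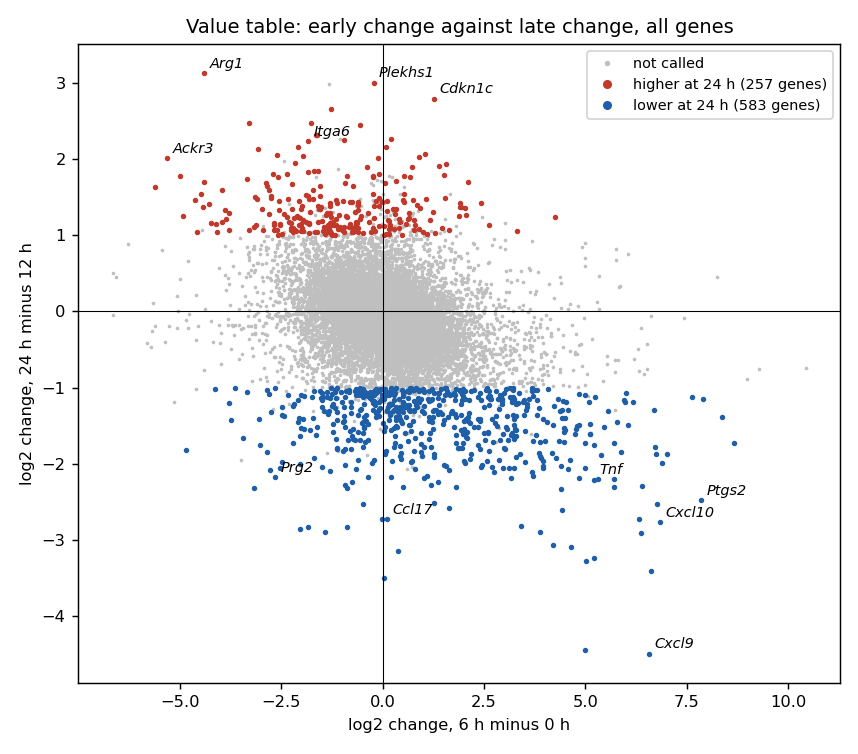
Each point is a gene of the value table, with its log2 change from 0 h to 6 h on the horizontal axis and from 12 h to 24 h on the vertical axis. The 257 genes higher at 24 h (red) lie mostly left of 0 and the 583 lower at 24 h (blue) reach far to the right, with Cxcl9 at the bottom and Arg1 at the top; grey genes were not called.

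The classes ended at different levels. The 292 early risers that then fell had a median level of 3.00 at 6 h, 2.57 at 12 h and 1.11 at 24 h, as log2 ratios to 0 h. At 24 h 158 of them were still at least 2-fold above 0 h and 59 were below it. The 138 genes that fell early and then rose had medians of -2.05, -1.87 and -0.61 at 6, 12 and 24 h, and 99 of them were still below 0 h at 24 h. The 78 genes that fell at both steps went the other way, from -1.74 at 6 h through -2.84 at 12 h to -4.28 at 24 h. The 213 genes that fell without an earlier call had a median of -0.47 at 12 h and -1.77 at 24 h, and 204 of them were below 0 h at 24 h. The 95 that rose without one had medians of 0.60 and 1.90.

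The stretch upstream of the transcription start is shown for 6 of the genes that fell, picked from the chemokine and interferon lists described next to show 2 motifs in place, after the matches and values were seen. The sequences are the 250 bases before the start, 5′ to 3′ on the strand of the gene, from RefSeq on GRCm38.p6. Capitals mark matches to the motifs. The interferon-stimulated response element was searched as GAAA, any 2 bases and GAAA, or TTTC, any 2 bases and TTTC on the other strand. A kB site of NF-kB was searched as GGGA, any 4 bases and CC, or GG, any 4 bases and TCCC on the other strand.
Cxcl9 (chr5:92328080-92328329, minus strand): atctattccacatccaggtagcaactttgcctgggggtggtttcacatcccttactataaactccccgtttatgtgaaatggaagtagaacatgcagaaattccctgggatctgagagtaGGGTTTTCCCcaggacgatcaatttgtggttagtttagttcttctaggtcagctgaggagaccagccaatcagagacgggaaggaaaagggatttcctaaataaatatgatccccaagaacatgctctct
Cxcl10 (chr5:92348890-92349139, minus strand): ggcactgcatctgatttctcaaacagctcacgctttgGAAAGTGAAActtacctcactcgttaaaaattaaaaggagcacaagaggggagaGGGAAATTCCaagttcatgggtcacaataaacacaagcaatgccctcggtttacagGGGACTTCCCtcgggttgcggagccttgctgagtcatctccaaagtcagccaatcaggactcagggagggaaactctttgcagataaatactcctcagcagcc
Gbp2 (chr3:142620413-142620662, plus strand): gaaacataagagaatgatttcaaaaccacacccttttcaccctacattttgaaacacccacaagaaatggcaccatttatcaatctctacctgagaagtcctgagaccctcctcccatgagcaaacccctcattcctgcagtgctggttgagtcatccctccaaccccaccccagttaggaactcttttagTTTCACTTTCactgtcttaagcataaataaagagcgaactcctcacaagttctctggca
Isg15 (chr4:156200819-156201068, minus strand): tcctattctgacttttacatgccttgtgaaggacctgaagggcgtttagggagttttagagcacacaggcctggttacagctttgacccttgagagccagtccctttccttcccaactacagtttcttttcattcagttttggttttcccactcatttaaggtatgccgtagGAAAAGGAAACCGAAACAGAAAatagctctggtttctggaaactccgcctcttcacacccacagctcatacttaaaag
Ifit1 (chr19:34640639-34640888, plus strand): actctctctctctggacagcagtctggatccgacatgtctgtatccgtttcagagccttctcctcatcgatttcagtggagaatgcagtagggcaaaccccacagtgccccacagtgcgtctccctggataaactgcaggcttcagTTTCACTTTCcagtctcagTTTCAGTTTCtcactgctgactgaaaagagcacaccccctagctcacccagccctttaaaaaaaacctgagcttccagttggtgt
Cxcl2 (chr5:90903649-90903898, plus strand): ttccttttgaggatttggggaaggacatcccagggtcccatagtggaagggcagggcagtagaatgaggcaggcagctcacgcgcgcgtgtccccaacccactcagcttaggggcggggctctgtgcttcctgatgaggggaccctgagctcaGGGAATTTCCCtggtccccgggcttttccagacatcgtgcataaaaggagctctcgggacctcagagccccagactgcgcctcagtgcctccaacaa
The nearest response element began 59 bases before the start of Gbp2, and in Isg15 3 matches overlapped, beginning 78, 72 and 66 bases before the start. In Cxcl10 the element began 213 bases and the kB matches 159 and 103 bases before the start, and the 2 kB matches in Cxcl2 overlap. The element was found in 978 of 32851 RefSeq promoters of that length (2.98%), in 8 of 14 promoters from 11 of the 17 interferon-gamma type genes (57.1%) and in 8 of 23 promoters from 19 of the 23 antiviral genes (34.8%). The kB motif was found in 5793 of the 32851 (17.6%), in 12 of 20 promoters from 17 of the 20 NF-kB targets and brakes (60.0%) and in 6 of 13 promoters from 13 of the 20 chemokines (46.2%). The kB motif was also in 6 of 18 cytokine (33.3%), 6 of 23 antiviral (26.1%) and 3 of 14 interferon-gamma type promoters (21.4%). For the response element the shares were 1 of 13 for chemokines (7.69%), 1 of 18 for cytokines (5.56%) and 0 of 20 for NF-kB targets and brakes. These matches describe letters in a window. The windows searched for Tnf, Irf7, Icam1 and Ptgs2 held neither motif, nor did that of a further start of Gbp3.

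Chemokines, the secreted proteins that attract leukocytes, had the largest share of falls among the 30 pathway lists: 12 of 20 measured members fell and 1 rose, with a median change of -1.16. Cxcl9, which draws CXCR3-bearing T cells, had ratios of 31.3, 32.6 and 27.2 at 12 h and of 1.45, 0.893 and 1.87 at 24 h. All 3 values at 24 h lay around the level at 0 h, far from every value at 12 h. The fall of 22.5-fold (log2 change -4.49 ± 0.24 SE, adjusted p = 5.9e-07) was the largest of any gene with a symbol. Cxcl10, a ligand of the same receptor, went from 19.4, 21.1 and 17.9 to 2.84, 2.78 and 2.92, a 6.82-fold fall after ratios of 104 to 125 at 6 h. Ccl17, which attracts CCR4-bearing T cells, differed from these in not having risen at 6 h (1.03 to 1.15). It went from 0.522, 0.537 and 0.516 at 12 h to 0.0795, 0.0812 and 0.0774 at 24 h, a 6.62-fold fall to below the level at 0 h.

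Cxcl1, a neutrophil attractant, remained far above 0 h. It had ratios of 548, 549 and 491 at 12 h and 162, 149 and 168 at 24 h, so the groups were far apart. Its SE of 0.57 includes the spread at 0 h, where replicate 3 stood at 5.58 against 1 and 0.801, and its call (adjusted p = 0.033) was lost on leaving out any 1 of the 6 samples. Cxcl2, another neutrophil attractant, went from 82.2, 80.9 and 73.4 to 21.5, 20.4 and 22.5, a 3.67-fold fall. Ccl5, which attracts T cells and monocytes, was at 28.4, 29.3 and 25.8 and then at 22.9, 22.7 and 23.1, a log2 change of -0.28 that fell short of 2-fold. Ccl7, a monocyte attractant, was the member that rose, from 0.439, 0.414 and 0.428 to 0.820, 0.940 and 0.873. Its 2.05-fold rise kept it below the level at 0 h, and it was not called without 24 h replicate 2 (log2 change 0.99). In the scanner files 15 of the 20 chemokines fell (12.9% of all genes did) and 1 rose (18.1% of all did).

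Of 22 measured inflammatory cytokines 9 fell, none rose and 13 were not called, with a median change of -0.93. Csf3, the growth factor of granulocytes, was nearly level from 6 h (47.8 to 56.2) to 12 h (52.2, 50.6 and 49.1) and then went to 8.85, 11.5 and 10.6. Tnf, an early inflammatory cytokine, was at 37.3 to 39.1 at 6 h, at 19.4, 20.5 and 19.2 at 12 h and at 4.2, 4.08 and 4.50 at 24 h. The values at 12 h and 24 h did not overlap in either gene, and the falls from 12 h were 4.95-fold and 4.63-fold (adjusted p = 9.3e-07 and 2.0e-08). Tnfsf15, a ligand that costimulates T cells, followed Tnf with a 4.60-fold fall.

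Among the interleukins, Il6, which drives the acute-phase response, went from 76.5, 79.9 and 71.0 to 21.9, 20.8 and 23.6, a 3.43-fold fall. Il1b, the secreted pyrogenic cytokine, went from 18.4, 18.6 and 18.0 to 6.63, 6.13 and 6.70, a 2.83-fold fall. Its partner Il1a fell 2.24-fold. Il10, which restrains dendritic cells, was at 6.99, 6.30 and 7.93 and then at 3.42, 3.43 and 4.06. The groups did not overlap, a separation not counted over all genes, and its log2 change of -0.96 ± 0.09 (SE) fell just short of 2-fold.

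**Figure D2:**
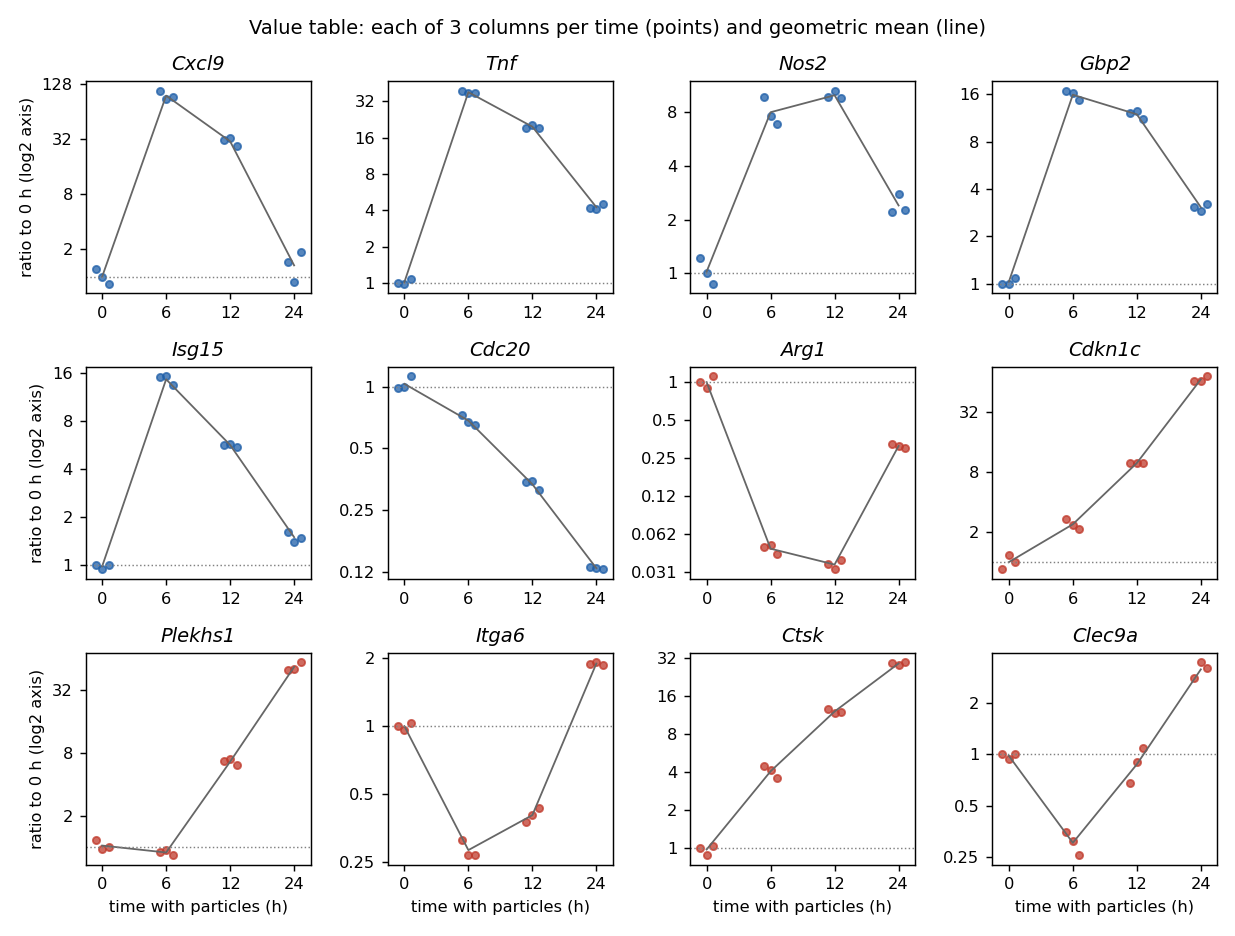
Ratios to 0 h in the value table on a log2 axis for 12 genes; each point is 1 of 3 columns per time and the line joins geometric means. Blue genes fell from 12 h to 24 h and red genes rose; Arg1 rose from 0.0327 to 0.0388 at 12 h to 0.302 to 0.323 at 24 h, while Cxcl9 returned to around 1.

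Targets of NF-kB, its subunits and its inhibitors, taken as 1 list, moved in 1 direction and mostly by less than 2-fold. All 20 measured members of this list had a negative change, 5 passed the threshold and the median was -0.83. The list stood at a median log2 level of 2.67 at 6 h, 2.37 at 12 h and 1.57 at 24 h. Nfkbiz, a nuclear inhibitor-like protein needed for a subset of NF-kB targets, went from 4.41, 4.45 and 3.88 to 1.37, 1.35 and 1.40, a 3.09-fold fall. Nfkbia, which holds NF-kB in the cytoplasm, went from 3.99, 4.22 and 3.88 to 1.82, 1.81 and 1.90, a 2.18-fold fall. Among the dual-specificity phosphatases, which switch off MAP kinases, Dusp2 was the 1 of 10 members that fell (2.90-fold). Cish, a feedback inhibitor of cytokine receptors that signal through STAT5, was the 1 of 14 SOCS and feedback genes that fell (2.49-fold). It had already fallen at 6 h and went from 0.0415, 0.0430 and 0.0417 to 0.0175, 0.0166 and 0.0166. Of 16 AP-1 and EGR transcription factors 2 fell, Maff 2.22-fold and Batf 2.03-fold, and Batf was not called without 12 h replicate 1 (log2 change -0.96) or with centred columns (-0.91).

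Interferon-stimulated genes were followed in 2 lists. Of 23 antiviral genes 11 fell and 12 were not called, all 23 with a negative change (median -0.77). Isg15, a ubiquitin-like modifier, was at 13.6 to 15.3 at 6 h, at 5.70, 5.78 and 5.52 at 12 h and at 1.62, 1.40 and 1.48 at 24 h. Ifit1, which binds foreign RNA caps, went from 6.31, 6.35 and 5.69 to 1.91, 1.38 and 1.5, and Rsad2, the antiviral enzyme viperin, from 32.4, 32.7 and 28.6 to 9.45, 7.82 and 8.30. In each of the 3 genes every time stood apart from the next, and the falls from 12 h were 3.79-fold, 3.87-fold and 3.67-fold (adjusted p = 4.4e-08, 9.5e-07 and 4.4e-07).

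Of 17 genes of the interferon-gamma type, mainly guanylate-binding and immunity-related GTPases that attack vacuoles of microbes, 9 fell and 8 were not called (median -1.04). Gbp2 had ratios of 12.2, 12.5 and 11.2 at 12 h and 3.07, 2.90 and 3.21 at 24 h, and Gbp5 of 6.75, 6.31 and 5.97 and then 1.52, 1.60 and 1.73. Both stayed above 0 h in every sample, whereas Gbp4 went from 1.10, 1.13 and 0.988 to 0.250, 0.261 and 0.273. The 3 falls were close in size, at 3.90-fold, 3.93-fold and 4.09-fold. The median level of the list was 1.58 at 6 h, 0.77 at 12 h and -0.40 at 24 h, so that at 24 h it was below 0 h. The Gbp and Ifit genes have near-identical relatives, so a probe may read more than its own gene. In the scanner files all 23 antiviral genes and all 17 of the GTPase list fell.

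**Figure D3:**
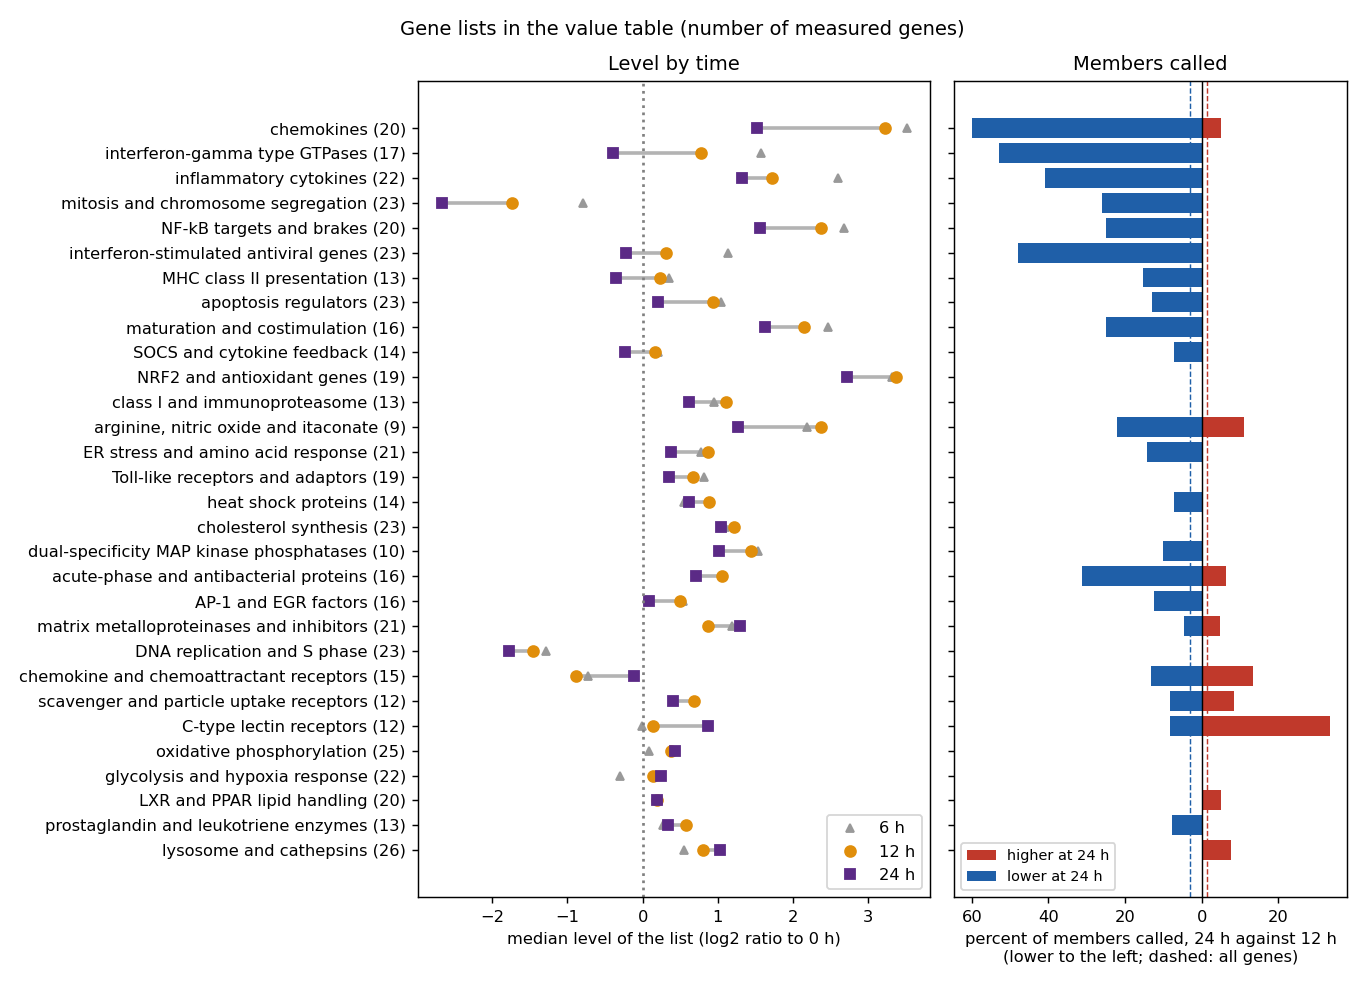
Left, the median log2 ratio to 0 h of each of 30 gene lists in the value table at 6, 12 and 24 h, in order of their change; right, the percent of measured members called lower (blue, to the left) or higher (red) at 24 h than at 12 h, with dashed lines at the 3.17% and 1.4% of all genes. The chemokine median went from 3.22 at 12 h to 1.52 at 24 h, both interferon medians went from above to below 0, and the mitosis median went from -1.74 to -2.67.

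Among 9 measured genes of arginine, nitric oxide and itaconate metabolism 1 rose, 2 fell and 6 were not called. Arg1, arginase, which breaks down arginine, had the largest rise of any gene with a symbol. Its ratios were 0.0493, 0.0512 and 0.0432 at 6 h, 0.0359, 0.0327 and 0.0388 at 12 h and 0.323, 0.315 and 0.302 at 24 h. Every sample at 24 h was above every sample at 6 h and 12 h, and all were still under the level at 0 h. The rise was 8.76-fold (log2 change 3.13 ± 0.09 SE, adjusted p = 2.3e-08). Nos2, the inducible nitric oxide synthase, which uses the same substrate, went from 9.72, 10.6 and 9.68 to 2.21, 2.78 and 2.26, a 4.16-fold fall. Slc7a2, a transporter that brings arginine into the cell, fell 2.41-fold, from 18.3, 17.5 and 17.6 to 7.23, 7.34 and 7.55.

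Ptgs2, the inducible cyclooxygenase of prostaglandin synthesis, was the 1 of 13 prostaglandin and leukotriene enzymes that fell. It had ratios of 137, 139 and 126 at 12 h and 23.1, 23.6 and 25.7 at 24 h. The groups were far apart and the fall was 5.56-fold. Of 16 acute-phase and antibacterial proteins 5 fell and 1 rose. Orm1, an acute-phase carrier protein, rose from 20.0, 16.9 and 20.9 to 48.0, 48.7 and 51.6, a 2.58-fold change. Saa3, a serum amyloid made by myeloid cells, was at 1036, 1147 and 998 at 12 h and at 1422, 1436 and 1470 at 24 h. These groups did not overlap either, a separation not counted over all genes, and the log2 change of 0.45 was under 2-fold. The 5 that fell were Camp, Ngp, S100a8, S100a9 and Lcn2, and 4 of them also stand in the neutrophil marker list below. With centred columns Camp and Ngp were called and the other 3 were not.

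Costimulatory and maturation proteins had a smaller median change than the chemokines and cytokines. Of 16 measured members 4 fell, none rose and the median was -0.52, with a list level of 2.15 at 12 h and 1.63 at 24 h. In the scanner files all 16 fell, with a median of -2.79, or -2.51 with genes that have only a bound set at it. Icosl, which costimulates T cells through ICOS, went from 1.09, 1.16 and 0.972 to 0.351, 0.345 and 0.382, a 2.98-fold fall. Icam1, an adhesion molecule for T cells, fell 2.16-fold. Cd86, the ligand of CD28, went from 2.73, 2.77 and 2.41 to 1.19, 1.31 and 1.26. Its 2.10-fold fall was not called with the columns centred, nor with the mean of all its kept probes (log2 change -0.81). Cd83, a surface marker of mature dendritic cells, was at 7.93, 7.99 and 7.23 and then at 5.29, 5.44 and 5.71. Ccr7, the receptor that leads mature dendritic cells to lymph nodes, was at 9.56, 9.65 and 9 and then at 7.50, 7.85 and 8.69. Neither Cd83 (log2 change -0.49) nor Ccr7 (-0.23) reached 2-fold, and both stayed above 0 h in every column of the table.

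In antigen presentation Ciita, the master regulator of MHC class II transcription, fell 3.62-fold, from 1.06, 1.04 and 0.881 to 0.261, 0.274 and 0.285. Among the 13 measured class II genes the other that fell was Cd1d1, which presents lipids (2.20-fold), and 12 of the 13 had a negative change. None of the 13 class I and immunoproteasome genes was called, with a median of -0.47. None of the 19 Toll-like receptors and adaptors was called either, with a median of -0.32.

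Receptors for chemoattractants and for particles went both ways. Ackr3, a scavenger of CXCL12, had ratios of 0.0318, 0.0259 and 0.0265 at 12 h and 0.103, 0.100 and 0.138 at 24 h. The rise of 4.03-fold left it far under the level at 0 h in all samples. C3ar1, a complement receptor, was called higher at 2.00-fold, and the call was lost without 12 h replicate 1 (log2 change 1.00) or without 24 h replicate 2 (0.99). Cx3cr1, the fractalkine receptor, fell 2.48-fold after standing at 31.1, 31.2 and 27.7 at 12 h, and Ccrl2 fell 2.06-fold, a call lost with centred columns (log2 change -0.93) and with the slide as a block (-0.94). In all, 2 of 15 such receptors rose and 2 fell.

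Of 12 measured C-type lectin receptors, which bind sugars or other ligands on microbes and dead cells, 4 rose and 1 fell. Clec9a, which recognises dead cells and marks cross-presenting dendritic cells, went from 0.681, 0.895 and 1.09 to 2.79, 3.44 and 3.19. The 3.58-fold rise took it from around to above the level at 0 h, after 0.257 to 0.351 at 6 h. Mrc1, the mannose receptor, rose 2.53-fold, from 0.132, 0.128 and 0.140 to 0.323, 0.334 and 0.354, and Clec1b rose 2.11-fold. Mgl2, a galactose-binding lectin, fell 4.17-fold, from 0.0424, 0.0421 and 0.0423 to 0.01, 0.0101 and 0.0103. With 24 h values at the smallest ratio the table holds, the size of that fall is not known. Marco, a scavenger receptor for particles, was at 202, 202 and 179 at 12 h and at 188, 180 and 192 at 24 h. Its groups overlapped and its log2 change was -0.06. Of the 12 scavenger and uptake receptors 1 rose, Mrc1, and 1 fell, Axl, a receptor for apoptotic cells (2.07-fold, not called with centred columns).

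The largest rises after Arg1 came from genes with different courses by 6 h. Plekhs1 was not above 0 h at 6 h (0.842 to 0.942), was at 6.73, 6.94 and 6.07 at 12 h and reached 49.5, 50.5 and 58.4 at 24 h, an 8.02-fold rise. Cdkn1c, an inhibitor of cyclin-dependent kinases, was higher at each later time, from 2.11 to 2.71 at 6 h to 9.73, 9.79 and 9.88 at 12 h and 66.0, 65.5 and 72.8 at 24 h. Its rise was 6.94-fold (log2 change 2.79 ± 0.12 SE, adjusted p = 1.4e-07). Cnrip1, a protein that binds the cannabinoid receptor CB1, went from 0.819, 0.742 and 0.928 to 5.19, 5.28 and 5.22, a 6.33-fold rise. Neither Cdkn1c nor Cnrip1 had a probe well above background on all 12 scanner arrays.

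Genes of lipid and signalling enzymes were also among the 15 largest. Ephx2, the soluble epoxide hydrolase, which converts lipid epoxides, rose 4.2-fold, from 5.49, 6.09 and 5.20 to 24.0, 23.1 and 23.2. Rapgef3, an exchange factor switched on by cyclic AMP, rose 4.07-fold, from 4.92, 5.86 and 5.96 to 22.1, 23 and 22.7. Htr2b, a serotonin receptor, rose 4.80-fold, from 4.38, 3.74 and 5.05 to 21.6, 20.6 and 20.5. The 15 were chosen among genes whose groups did not overlap, so the separation in these 3 is no added result. Itga6, an integrin subunit for laminin, fell early and then rose past the level at 0 h, with 0.267 to 0.311 at 6 h, 0.373, 0.403 and 0.433 at 12 h and 1.89, 1.92 and 1.87 at 24 h. Abca9, a lipid transporter of the ABC family, rose 4.14-fold and stayed below 0 h. Rhpn2, Npdc1, Echdc3 and Bex1 completed the leading rises at 4.45-fold, 4.46-fold, 4.09-fold and 4.03-fold.

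The largest falls outside the cytokine and interferon lists had mixed histories. Il1f6, an IL-36 cytokine, went from 48.0, 48.1 and 47.0 to 3.34, 4.98 and 5.38, a 10.7-fold fall. Apol7c, an apolipoprotein L family member, was higher at 12 h, at 80.9, 82.5 and 69.0, than at 6 h (34.3 to 36.9), and then went to 7.82, 8.07 and 8.71. Its fall was 9.42-fold. Phlda2 fell 8.53-fold, and Edn1, the vasoconstrictor peptide endothelin, went from 34.5, 37.4 and 35.9 to 5.73, 4.24 and 4.48, a 7.52-fold fall. Ereg, a ligand of the EGF receptor, fell 5.03-fold. Tnfrsf13c, the receptor of the B cell survival factor BAFF, had been near 0 h at 12 h (0.982, 0.946 and 0.865) and went to 0.0875, 0.104 and 0.128, a fall of 8.86-fold. Btla, an inhibitory receptor, fell 4.95-fold and Plet1 5.77-fold, each ending below 0 h. Smim5 (11.4-fold) and Cd5l (7.07-fold) fell in the table and rose in the scanner files.

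Central metabolism gave no calls. None of 25 oxidative phosphorylation genes, none of 22 glycolysis and hypoxia genes and none of 23 cholesterol synthesis genes was called, with medians of 0.02, 0.02 and -0.25. Hmgcs1, an early enzyme of cholesterol synthesis, was at 3.19, 3.24 and 3.07 and then at 2.52, 2.64 and 2.72 (log2 change -0.27). The antioxidant targets of NRF2 remained far above 0 h: their median level was 3.37 at 12 h and 2.71 at 24 h, with none of 19 called.

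Among the 30 pathway lists, lysosomal genes had the most positive median (0.10), and 2 of 26 rose. Ctsk, a collagen-degrading cathepsin, was higher at each later time, with 3.55 to 4.49 at 6 h, 12.5, 11.6 and 12.0 at 12 h and 29.3, 27.9 and 29.6 at 24 h. Atp6v0d2, a subunit of the proton pump that acidifies lysosomes, rose 2.13-fold from 1.87, 1.58 and 1.55 to 3.53, 3.51 and 3.54. Fabp5, a fatty acid carrier, was the 1 of 20 LXR and PPAR genes that rose (2.46-fold), and its call was lost on leaving out any 1 of the 6 samples. In the matrix list Timp2, an inhibitor of metalloproteinases, rose 2.36-fold and Mmp13, a collagenase, fell 2.82-fold. Of 21 ER stress and amino acid response genes 3 fell: Chac1 (2.47-fold), which degrades glutathione, Nupr1 (2.46-fold) and Phgdh (2.27-fold), the first enzyme of serine synthesis. Among 23 apoptosis regulators Cflar, an inhibitor of caspase-8, fell 2.21-fold, the death receptor Fas 2.11-fold and Casp4 2.01-fold. The falls of Fas and Casp4 were not called with centred columns. Of the 14 heat shock proteins 1, Hspa1a, fell (2.03-fold), and it too was not called with centred columns.

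Mitosis genes went further down from a level already low. Of 23 measured members 6 fell and none rose, all 23 had a negative change and the median was -0.87. Their median level was -0.79 at 6 h, -1.74 at 12 h and -2.67 at 24 h. Cdc20, which activates the anaphase-promoting complex, went from 0.344, 0.346 and 0.315 to 0.132, 0.131 and 0.129, a 2.57-fold fall. Ccnb2, a mitotic cyclin, fell 2.39-fold and Mad2l1, a spindle checkpoint protein, 2.44-fold. DNA replication genes had a median change of -0.11 and none of 23 was called. Tk1, a thymidine kinase of S phase, was at 0.143, 0.139 and 0.140 and then at 0.162, 0.174 and 0.161 (log2 change 0.24). In the scanner files the direction for mitosis was the opposite: 22 of the 23 genes rose, and Cdc20 rose 4.46-fold.

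Markers of other cell types moved beside these changes. Of 12 markers of conventional dendritic cells 9 were above background on all arrays at 12 h and 24 h. Clec9a rose, Btla fell and 10 were not called, with a median change of -0.36 and 8 of the 12 negative. Scanner files had 3 of the 12 higher and 4 lower. There the list summed to 72.7 to 74.2 times the 75th percentile signal at 12 h and to 109 to 110 at 24 h. Flt3, whose protein drives dendritic cell growth, had a change of 0.99, and Cd209a, a lectin of monocyte-derived dendritic cells, stood at the smallest ratio in all 3 columns at 12 h and 2 at 24 h. Of 13 markers of granulocyte precursors and neutrophils 7 fell and 1, Retnlg, rose. Camp, a granule peptide, went from 1.21, 1.23 and 1.15 to 0.315, 0.312 and 0.333, and Elane, neutrophil elastase, from 0.145, 0.0891 and 0.0547 to 0.0353, 0.0309 and 0.0239. The groups stayed apart in both, with falls of 3.74-fold and 3.00-fold. With the slide of the scanner files as a block, Elane had a log2 change of -0.88 and was not called. With centred columns 5 of the 7 were called. The 13 markers summed in the scanner files to 376 to 420 times the 75th percentile signal at 12 h and to 379 to 388 at 24 h, and 3 of them rose there.

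Of 9 markers of mast cells, basophils and eosinophils 6 fell and none rose. Prg2, an eosinophil granule protein, went from 0.0911, 0.0803 and 0.0651 to 0.0156, 0.0196 and 0.0169, a 4.52-fold fall. Hdc, which makes histamine, went from 1.94, 1.85 and 1.89 to 0.442, 0.456 and 0.468, a 4.15-fold fall, and Ear6 fell 3.30-fold. In the scanner files 1 of the 9, Hdc, fell and none rose, and the list summed to 193 to 206 at 12 h and to 54.4 to 54.8 at 24 h. None of 11 macrophage, 8 T cell, 5 B cell or 5 erythroid markers was called. Klrb1c, an NK cell receptor, rose 3.85-fold, from 0.450, 0.374 and 0.177 to 1.03, 1.33 and 1.24, and was the 1 of 4 NK cell markers called; that list summed to 1.3 to 1.36 at 12 h and 4.05 to 4.10 at 24 h in the scanner files. Dcn and Lum, matrix proteins of fibroblasts, rose 3.23-fold and 2.13-fold, 2 of 4 stromal markers, and Lum was not called without 12 h replicate 1 (log2 change 0.72). The stromal list summed to 1.15 to 1.43 and then 0.582 to 0.634 in the scanner files. Among 6 plasmacytoid markers Klk1 fell 2.13-fold, and was not called with centred columns, and that list summed to 204 to 241 and then 47.2 to 48.8 in the scanner files, where 2 of its markers rose and 2 fell. The part of these cell types in the results above was not tested.

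The scanner files held more and larger differences between the arrays labelled 24 h and 12 h. There 3338 genes were higher at 24 h (18.1%) and 2369 lower (12.9%), 31% of all genes in either direction. With the slide as a block the counts were 3097 and 2229, and within the slide that holds both groups they were 3201 and 2246. Both sources called 311 genes lower, 53.3% of the table's falls and 13.1% of the scanner's. Both called 150 genes higher, 58.4% of the table's rises and 4.49% of the scanner's. In opposite directions, 77 genes fell in the table and rose in the scanner files, and 28 did the reverse.

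Where a probe was well above background on none of the 3 arrays at 1 time, or saturated on all 3 at the other, the scanner fold is a lower bound. Il6 was at least 697-fold lower at 24 h in the scanner files, Ptgs2 at least 888-fold and Nos2 at least 58.3-fold, against 3.43-fold, 5.56-fold and 4.16-fold in the table. Genes that the table did not call were also far apart there: Marco was 162-fold lower and Saa3 at least 318-fold lower. Cxcl9 was 17.7-fold lower and Cxcl10 8.26-fold lower in the scanner files, against 22.5-fold and 6.82-fold in the table. Of the rises, Itga6 was 4.40-fold higher in the scanner files and 4.72-fold in the table, and Cadm1, an adhesion molecule, was 4.34-fold and 3.71-fold higher. Arg1 was 1.77-fold higher in the scanner files and not called. Gls2, a glutaminase, rose 3.81-fold in the table and fell 4.40-fold in the scanner files. Ccl7, Orm1, Dcn and Lum also rose in the table and fell in the scanner files, and Cx3cr1 and Mgl2 did the reverse.

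**Figure D4:**
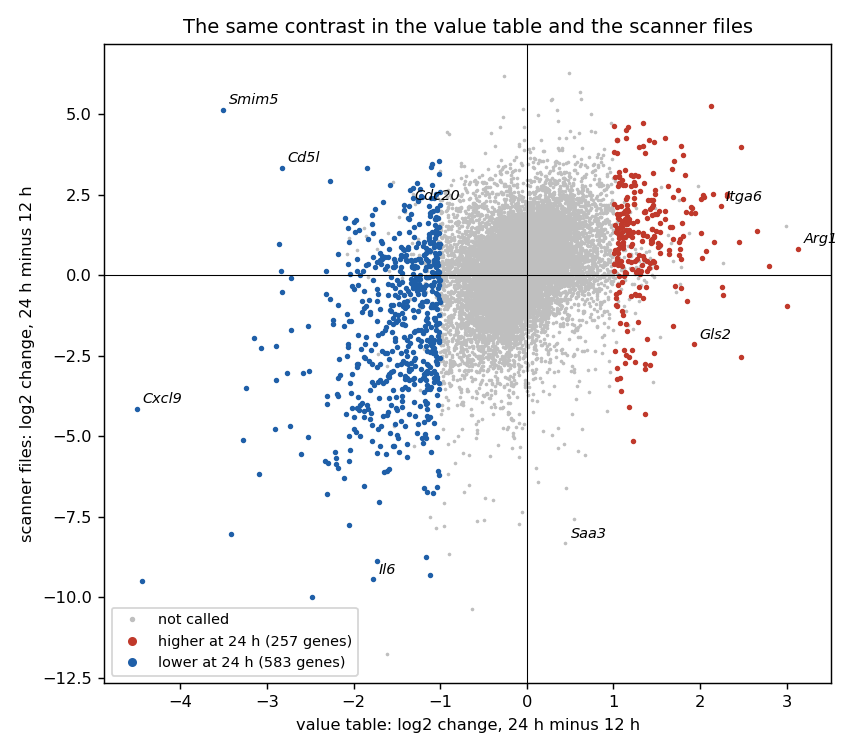
Each point is a gene, with its log2 change from 12 h to 24 h in the value table on the horizontal axis and in the scanner files on the vertical axis; colours mark the genes called in the table. The vertical axis spans a wider range, the 583 falls (blue) lie mainly below 0 but 77 of them rose in the scanner files, and Saa3 lies far below 0 without a fall in the table.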

How the data were processed

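RNA of 12 samples (4 times, 3 samples each) was measured on 1-colour arrays. Intensities were extracted with Agilent Feature Extraction 9.1.3.1, per the submitters' processing notes and the file headers, and are background-subtracted, detrended signals on a linear scale. Linear ratios make up the authors' value table: all 41262 probes had a median of 1 over the 3 columns at 0 h (tolerance 1e-05), with a smallest ratio of 0.01. Its scaling and the genome build are not given in the sources used here. For the table, log2 of the deposited ratio was analysed, in which the value at 0 h cancels between 12 h and 24 h. For the scanner files, log2 of the deposited intensity minus the array's 75th percentile was analysed, without 732 outlier spots.

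Probes well above background on all arrays of at least 1 group were kept (23478), and each gene was represented by its kept probe of highest mean. RefSeq accessions named 22951 probes (55.7%), through a gene table of GRCm38.p6; other probes count under their accession. Of 4149 genes with several kept probes, 0 had probes called in both directions in the table.

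Probe tables were read into R with data.table (version 1.17.8). limma 3.58.1, run in R 4.3.3, fitted 4 group means to all 12 samples (8 residual degrees of freedom). Two-sided p-values were adjusted by Benjamini-Hochberg over 18392 genes, and a call needs an adjusted p under 0.05 and at least 2-fold. The number of arrays limits the precision. The fit was tested on simulated data. Scanner bounds set the brighter group's mean against, per array of the dimmer group, the higher of its lowest signal among probes well above background and the probe's own.

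The comparison and the 30 pathway and 10 marker lists were chosen with earlier results of these data known. Genes were named by rule: the 15 largest rises and falls in the table and the 8 in the scanner files, the 10 largest called alike and the 5 called oppositely in each direction, up to 3 rises and 3 falls per list, and 20 fixed markers. The 15 were taken among called genes whose groups did not overlap and that had no column at the smallest ratio. The 8 were taken among detected, unsaturated genes whose groups did not overlap. Separation of the groups in these genes therefore follows from the choice. Mki67, a fixed marker, was not analysed here. Some genes the rule names are not reported here. Flt3, S100a8, Lcn2, Cxcl2, Cd209a and the windows that held neither motif were added after their values were seen. The alternative scalings, filters, probe rules, blocks and omitted samples are given at the end. The planned background correction by normexp used the median spot signal in place of the mean.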

Additional observations from a re-analysis of the deposited data

How the results depend on the processing

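No named gene called in the table reversed under the settings tried; of the list medians, 3 changed sign with centred columns, 5 without the filter on detection, 4 with each quantile setting and 2 with the strict filter. Quantile normalization of all 12 table columns, which gives every column the same distribution, left 46 genes higher and 64 lower. In both sources it left 31 higher and 39 lower, with 28 early risers that fell and 30 early fallers that rose. The calls lost included those of Cdkn1c, Btla, Camp, Csf3, Bex1 and Abca9, and the cause was not tested. Over the 6 columns at 12 h and 24 h alone (chosen after seeing the data) quantile normalization gave 383 higher and 383 lower, which puts the share of higher genes at 50.0%. Restricting to probes well above background on all 12 arrays, which tests fewer genes, left 114 higher in the table, 63 higher in both sources and 53 early fallers that rose. It kept the call of 70 of the 102 named genes called in the table and did not test the other 32. Among those 32 were the rises of Abca9, Ackr3, Bex1, Cadm1, Cdkn1c, Clec9a and Cnrip1 and the falls of Apol7c and Csf3. With normexp, 1546 genes were higher in the scanner files; the cause was not tested. Leaving out 1 sample gave 242 to 329 higher and 539 to 695 lower in the table, both highest without 12 h replicate 3. It gave 3232 to 3540 and 2272 to 2451 in the scanner files, and 141 to 159 and 300 to 338 in both. Early risers that fell numbered 280 to 325, and early fallers that rose 132 to 151. Of 102 named genes called in the table, 10 lost the call on leaving out a sample (Batf, C3ar1, Casp4, Ccl7, Cxcl1, Fabp5, Hspa1a, Kcnj16, Lum and Postn), 9 with centred columns, 71 and 17 with the 2 quantile settings, and 14 with the slide as a block (chosen after seeing the data; 268 higher and 498 lower): C3ar1, Casp4, Ccrl2, Cd86, Cxcl1, Elane, Fabp5, Fas, Hspa1a, Kcnj16, Klk1, Lum, Postn and S100a9, while Il10 became called. Same-numbered samples did not deviate together (correlations of -0.08 to 0.01 in the table and 0.03 to 0.04 in the scanner files). A replicate block gave 255 higher and 580 lower in the table and kept all 102 calls. The mean of all kept probes kept 100 of them, and Cd86 was among the 2 lost.

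The floor of 0.01 was reached at 12 h or 24 h by 18 genes, whose changes are bounded. The table gives ratios without intensities, so how far its values stood above background is known only from the scanner files, whose arrays labelled 24 h order the samples differently.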
